A study of Mus musculus with 12 samples.

Results

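The comparison described here is a difference between 2 tumor responses: the change of each gene in osteoblasts of tumor-bearing against tumor-free mice, minus its change in endothelial cells of tumor-bearing against tumor-free mice. Osteoblasts are the cells that build bone, and endothelial cells line blood vessels. All 12 arrays of the series entered the comparison. Of 19937 genes with 1 symbol in the array annotation, each represented by its probe set with the highest mean over the 12 arrays, 12430 were tested. The 4 groups of 3 arrays were osteoblasts from tumor-bearing mice, osteoblasts from tumor-free mice, endothelial cells from tumor-bearing mice and endothelial cells from tumor-free mice, shortened below to tumor-bearing and tumor-free osteoblasts and endothelial cells. Every group was sorted from the long bones of female mice of the NOD SCID strain, which lacks working T and B lymphocytes but keeps its neutrophils and macrophages. Tumor-bearing mice had been injected into the heart with 200000 MDA-MB231 scp1833 cells, a bone-seeking subline of a human breast cancer line, and the bones were taken when tumor growth had been followed for about 2 weeks. The sources used here do not give the age of the mice or say whether tumor-free mice had a sham injection. Both cell types were sorted without GFP, TR119 and CD45. Osteoblasts were in addition without SCA1 and CD31 and with CD51, and endothelial cells carried SCA1 and CD31. A single tumor line in mice without lymphocytes limits what the groups stand for.

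Breast cancer that spreads to bone settles among cells of the bone surface and of the marrow vessels. Osteoblasts lay down collagen-rich matrix, mineralize it, and release factors that start or hold back osteoclasts, the cells that resorb bone. Marrow endothelium brings oxygen, lets blood cells pass, and switches on adhesion molecules and chemokines when cytokines reach it. A difference of responses shows where osteoblasts and endothelial cells did not change alike in tumor-bearing bone. Either cell type alone may have changed, or they may have changed by unequal amounts or in opposite directions.

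Values are deposited log2 expression levels, so a response of 1 is a 2-fold change. A group mean under 5.15, the 95th percentile of 1196 olfactory and vomeronasal receptor genes, is called low signal here, because such receptors are hardly used outside sensory tissue. By group means, the measured osteoblast and endothelial markers were higher in their own cell type, with small gaps for some. In tumor-free mice Itgav, the gene of CD51, averaged 8.38 in osteoblasts and 7.27 in endothelial cells. The endothelial gene Vwf averaged 6.37 and 6.65 in the same groups. Over the 3 tumor-bearing and 3 tumor-free arrays, Pecam1, the gene of CD31, averaged 5.41 ± 0.43 and 5.69 ± 0.61 in osteoblasts, against 10.81 ± 0.12 and 10.76 ± 0.084 in endothelial cells (SD, n = 3 each). Ibsp, the gene of bone sialoprotein, averaged 11.82 ± 0.081 in tumor-bearing and 11.83 ± 0.19 in tumor-free osteoblasts, against 5.94 ± 0.50 and 6.34 ± 0.82 in tumor-bearing and tumor-free endothelial cells (SD, n = 3 each). Replicates correlated at 0.946 to 0.969 in 3 groups and at 0.867 to 0.908 in tumor-free osteoblasts, whose arrays stood apart from each other. Their replicate 1 was high in 14 chondrocyte genes, with a mean of 9.76 against 8.38 and 6.55 on replicates 2 and 3. The same array was low in 12 monocyte and macrophage markers, with 4.97 against 8.19 and 8.08. In such sorted bulk samples, fewer cells of a type and less RNA per cell cannot be told apart.

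Between osteoblasts and endothelial cells the tumor response differed for 26 of 12430 genes (0.209%; limma, two-sided, adjusted p under 0.05). It was higher in osteoblasts for 22 genes (0.177%) and lower for 4 genes (0.0322%). At an unadjusted p under 0.05, 1290 genes were higher and 700 were lower. The 22 genes had differences of 1.22 to 2.73 (log2, median 1.80), with adjusted p-values of 0.0279 to 0.0413 by limma. All 22 rose in osteoblasts of tumor-bearing mice, by 0.61 to 2.76, and 0 passed the threshold in endothelial cells, where the responses lay between -0.91 and 0.17 and 20 of them were below 0. In osteoblasts the 3 tumor-bearing and the 3 tumor-free arrays did not overlap for any of the 22, against 24.7% of all genes tested. In endothelial cells the arrays did not overlap for 10 of the 22, against 18.8% of all genes. The same values chose the 22 genes, so both counts are a description and add no support. Over all genes the median difference was 0.048, with 53.3% of genes above 0, and the median responses were -0.0014 in osteoblasts and -0.021 in endothelial cells.

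**Figure D1:**
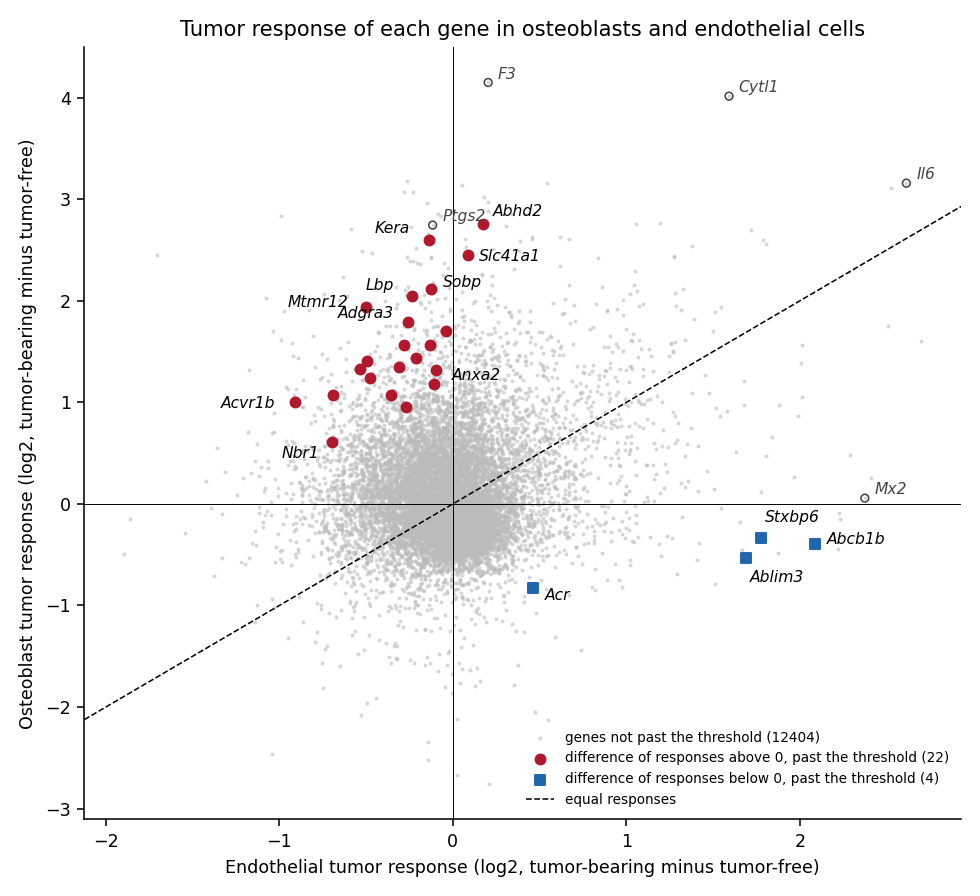
Tumor response of each of 12430 genes in osteoblasts (vertical axis) against endothelial cells (horizontal axis), both as log2 tumor-bearing minus tumor-free, each point 1 gene and the dashed line equal responses. The 22 genes with a larger osteoblast response (red circles) sit at osteoblast responses of 0.61 to 2.76, the 4 genes with a difference below 0 (blue squares) at endothelial responses of 0.46 to 2.09, and open circles mark 5 genes named in the text whose difference missed the threshold.

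The number of genes past the threshold depended on single arrays. Leaving out tumor-free osteoblast replicate 1, 2 or 3 gave 545, 223 and 40 genes, which held 26, 26 and 21 of the 26. Leaving out tumor-free endothelial replicate 2 or 3, any tumor-bearing endothelial array or tumor-bearing osteoblast replicate 2 gave 0 genes, with 1472 to 1948 genes at an unadjusted p under 0.05. Without tumor-bearing osteoblast replicate 3 there were 13 genes. All 26 kept their sign in every one of the 12 such fits. With the replicate number as a block, 0 genes passed, with 1861 at an unadjusted p under 0.05 by limma. Whether same-numbered arrays share mice is not known.

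Kera, which encodes keratocan, a small proteoglycan that binds collagen fibrils, had the largest difference of the 26 genes past the threshold. Its level was 6.42, 7.50 and 6.79 in tumor-bearing osteoblasts and 5.03, 3.92 and 3.98 in tumor-free osteoblasts, against 3.41, 3.29 and 3.34 in tumor-bearing and 3.39, 3.49 and 3.57 in tumor-free endothelial cells. Only the tumor-bearing osteoblasts lay above low signal. Kera passed the signal filter for testing, given below, through these 3 arrays alone, so their lack of overlap with other groups adds no support. The osteoblast response was 2.59 ± 0.31 (SE), the endothelial response -0.13 ± 0.31, and the difference 2.73 ± 0.44 (limma, adjusted p = 0.0413). With every array under the low-signal limit set to that limit, the difference was 1.75, or 3.37-fold, so the size for Kera depends on readings at low signal.

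Lipid and sterol enzymes were among the 22. Abhd2, a lipid hydrolase, had levels of 8.74, 9.51 and 8.97 in tumor-bearing osteoblasts and 5.83, 6.92 and 6.19 in tumor-free osteoblasts. Endothelial levels of Abhd2 were 7.98, 8.04 and 7.71 with tumor and 7.92, 7.49 and 7.80 without. The osteoblast groups were separated with no overlap, while the endothelial groups overlapped, and the difference was 2.59 ± 0.40 (SE; limma, adjusted p = 0.0329). Hsd17b7, an enzyme of cholesterol synthesis, measured 7.17, 7.48 and 7.63 in tumor-bearing osteoblasts and 6.26, 6.24 and 5.54 in tumor-free osteoblasts, against 5.95, 5.57 and 5.82 in tumor-bearing and 6.52, 6.15 and 6.16 in tumor-free endothelial cells. Its difference was 1.91 ± 0.31 (limma, adjusted p = 0.0413), made of a rise of 1.41 in osteoblasts and an endothelial response of -0.50 that did not pass (limma, adjusted p = 0.711).

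Also among the 22 were Lbp, receptors and a phosphatase of signaling. Lbp, the protein that hands bacterial lipopolysaccharide to its receptor complex, had 8.87, 9.07 and 8.53 in tumor-bearing osteoblasts and 6.35, 6.79 and 7.18 in tumor-free osteoblasts, against 8.64, 8.46 and 8.83 and 8.77, 9.02 and 8.85 in tumor-bearing and tumor-free endothelial cells. The 3 tumor-free osteoblast arrays were thus below the other 9. The difference for Lbp was 2.28 ± 0.31 (SE; limma, adjusted p = 0.0279). Acvr1b, a type I receptor for activin, differed in another way: its osteoblast arrays were 6.63, 6.32 and 6.30 with tumor and 5.60, 5.25 and 5.39 without, and its endothelial arrays 5.23, 5.32 and 5.37 with tumor and 6.68, 5.88 and 6.09 without. Both pairs of groups were separated, in opposite directions. The osteoblast rise of Acvr1b was 1.00 ± 0.20 and passed, the endothelial response of -0.91 ± 0.20 did not (limma, adjusted p = 0.232), and their difference was 1.91 ± 0.29 (limma, adjusted p = 0.0329). Adgra3, an adhesion G protein-coupled receptor, averaged 7.74 ± 0.28 in tumor-bearing and 5.95 ± 0.27 in tumor-free osteoblasts, against 5.66 ± 0.18 and 5.92 ± 0.22 in tumor-bearing and tumor-free endothelial cells (SD, n = 3 each), so that 3 groups lay close together and the tumor-bearing osteoblasts above them. Ptpn11, the phosphatase SHP2 of growth factor signaling, had a difference of 1.42 ± 0.23 (SE).

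Mtmr12, an inactive member of the myotubularin phosphatases, had the smallest p of all genes. Its levels were 7.47, 7.44 and 7.88 in tumor-bearing osteoblasts and 5.47, 5.91 and 5.60 in tumor-free osteoblasts, against 8.39, 7.84 and 8.29 and 8.69, 8.56 and 8.78 in tumor-bearing and tumor-free endothelial cells. The mean of tumor-bearing osteoblasts lay between those of tumor-free osteoblasts and of both endothelial groups, and the difference was 2.44 ± 0.28 (SE; limma, unadjusted p = 2.68e-06, adjusted p = 0.0279). Slc41a1, a magnesium transporter, measured 8.93, 8.79 and 8.15 in tumor-bearing osteoblasts and 5.96, 6.31 and 6.25 in tumor-free osteoblasts, against 7.37, 7.62 and 7.67 and 7.54, 7.22 and 7.64 in tumor-bearing and tumor-free endothelial cells. Here too the tumor-free osteoblasts were below all 9 other arrays, and the difference was 2.37 ± 0.31 (limma, adjusted p = 0.0279). Sobp, a zinc finger protein, averaged 8.08 ± 0.16 in tumor-bearing and 5.96 ± 0.38 in tumor-free osteoblasts, with both endothelial groups at low signal (4.87 with tumor and 4.99 without). For Sobp an endothelial response could therefore hardly be seen, and with values under the limit set to it the difference was 2.12, beside 2.24 as measured.

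Genes of mitochondria and of protein turnover were also among the 22, and Mfn1 and Ube3c were lowest in tumor-free osteoblasts. Mfn1, which fuses mitochondria, averaged 7.29 ± 0.11 in tumor-bearing and 5.73 ± 0.33 in tumor-free osteoblasts, against 7.73 ± 0.14 and 8.01 ± 0.12 in tumor-bearing and tumor-free endothelial cells (SD, n = 3 each). Ube3c, a ubiquitin ligase, averaged 7.27 ± 0.05 and 5.95 ± 0.27 in tumor-bearing and tumor-free osteoblasts, against 7.39 ± 0.13 and 7.93 ± 0.23 in tumor-bearing and tumor-free endothelial cells. The differences were 1.85 ± 0.25 for Mfn1 and 1.86 ± 0.24 for Ube3c (SE; limma, adjusted p = 0.0279 for each). Zbtb43, a zinc finger protein, had 5.85 ± 0.28 in tumor-bearing and 4.78 ± 0.16 in tumor-free osteoblasts, against 4.74 ± 0.087 and 5.43 ± 0.21 in tumor-bearing and tumor-free endothelial cells, with tumor-free osteoblasts and tumor-bearing endothelial cells at low signal. Its difference of 1.76 ± 0.25 came to 0.98 with values under the limit set to it. A further 8 genes higher in osteoblasts had differences of 1.22 to 1.74. They were Smim3 (1.74), Nrep (1.72), Prdm4 (1.69), Rhot1, which ties mitochondria to motor proteins (1.66), Park7, a protein of the oxidative stress response (1.65), Nbr1, a receptor of autophagy (1.31), Gaa, the lysosomal enzyme that breaks down glycogen (1.29), and Ttc17 (1.22). Ttc17 was the only one of the 26 with several probe sets, and its other probe set had a difference of -0.60.

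**Figure D2:**
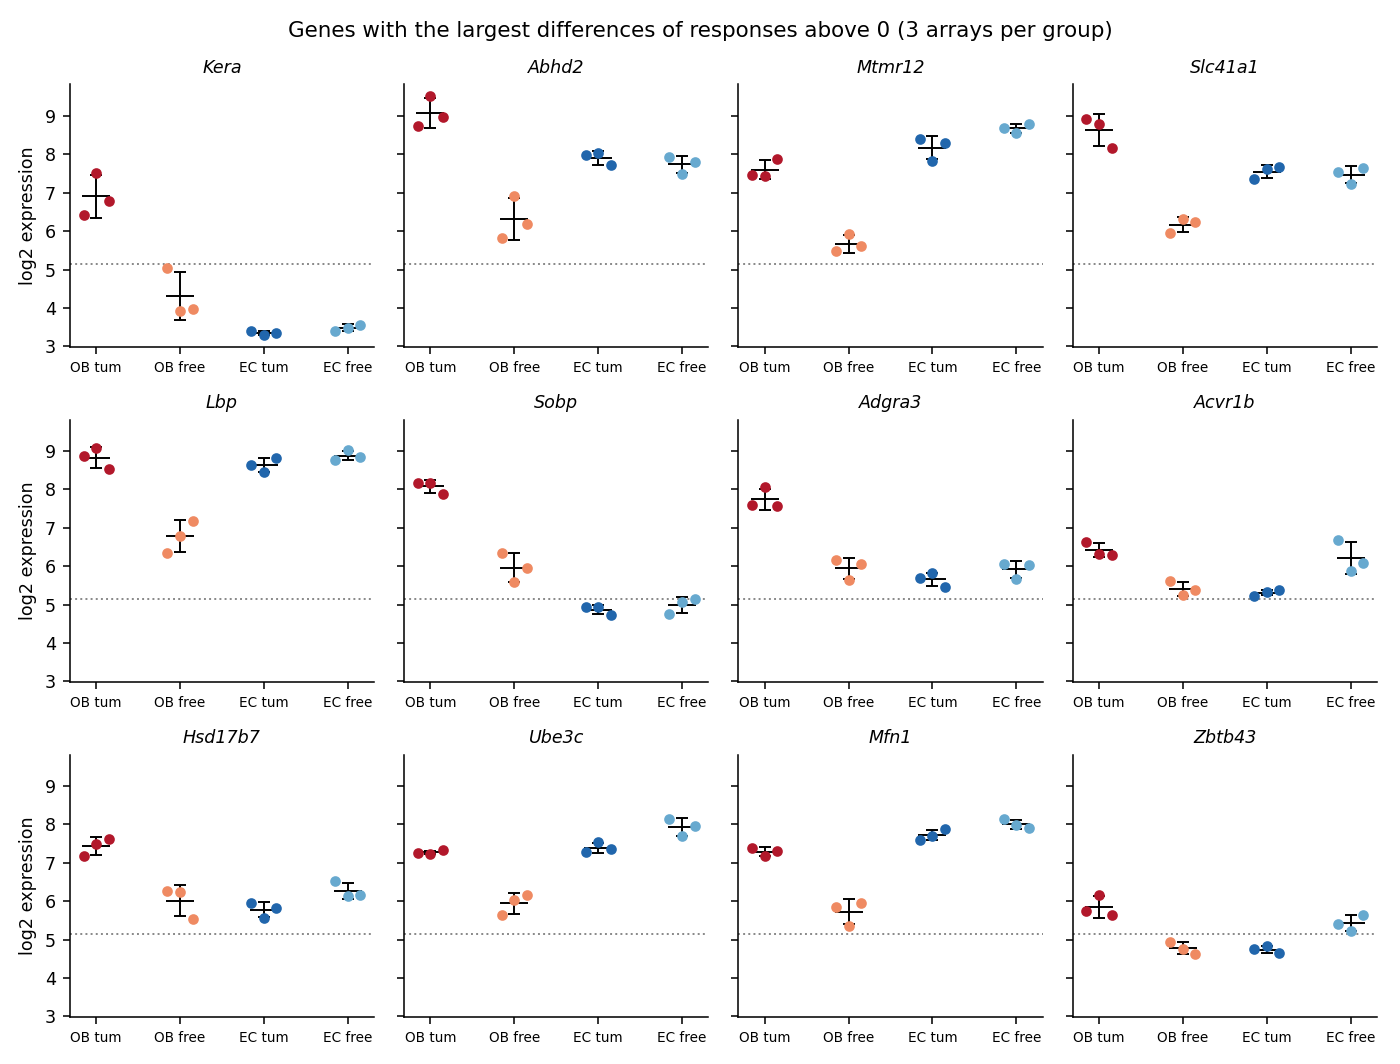
Log2 expression (vertical axis) of the 12 genes with the largest differences above 0, on each of 12 arrays, by group (horizontal axis: OB tum and OB free, tumor-bearing and tumor-free osteoblasts, EC tum and EC free, tumor-bearing and tumor-free endothelial cells). Dots are arrays, black bars the mean ± SD of 3 and the dotted line the low-signal limit of 5.15; in every panel the tumor-bearing osteoblasts lie above the tumor-free osteoblasts without overlap.

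The levels of the 22 in the 4 groups are described here without a test, since the same values chose the genes. Tumor-free osteoblasts were the lowest of the 4 group means for 14 of the 22, against 33.0% of all genes tested. Each of their 3 arrays was below all 9 other arrays for 13 of the 22, against 5.43% of all genes. For 19 of the 22 all 4 groups lay above low signal, against 85.8% of all genes. The exceptions were Kera, Sobp and Zbtb43, described above. With values under the limit set to it, all 26 kept their sign and 23 kept a difference of at least 1 on the log2 scale.

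Of the 4 genes with a difference below 0, 2 rose in endothelial cells of tumor-bearing mice. Abcb1b encodes P-glycoprotein, a pump that moves drugs and other compounds out of cells. Its level was 3.95, 4.14 and 3.81 in tumor-bearing osteoblasts and 4.03, 4.0 and 5.05 in tumor-free osteoblasts, against 6.00, 6.31 and 6.13 in tumor-bearing and 4.36, 4.0 and 3.80 in tumor-free endothelial cells. The tumor-bearing endothelial cells alone were above low signal. Abcb1b passed the signal filter for testing through these 3 arrays alone, so their lack of overlap with the other 9 adds no support. Abcb1b rose by 2.09 ± 0.27 in endothelial cells (SE; limma, adjusted p = 0.0458), its osteoblast response was -0.39 ± 0.27, and the difference was -2.48 ± 0.38 (limma, adjusted p = 0.0329). With values under the limit set to it, the difference was -0.99, a ratio of 1.99.

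Stxbp6, also called amisyn, binds the SNARE proteins that fuse vesicles with membranes. It measured 6.94, 7.52 and 6.86 in tumor-bearing osteoblasts and 7.43, 7.68 and 7.23 in tumor-free osteoblasts, against 7.48, 7.23 and 7.64 in tumor-bearing and 6.02, 5.56 and 5.43 in tumor-free endothelial cells. All 4 groups of Stxbp6 were above low signal, and the tumor-free endothelial cells lay below the other 9 arrays. The endothelial rise was 1.78 ± 0.23 (limma, adjusted p = 0.0458) and the difference -2.11 ± 0.32 (limma, adjusted p = 0.0329). Ablim3, an actin-binding LIM protein, was at low signal in both osteoblast groups, with means of 4.07 with tumor and 4.60 without, against 6.45, 5.88 and 6.44 in tumor-bearing and 5.01, 4.31 and 4.37 in tumor-free endothelial cells. Its endothelial response of 1.69 ± 0.24 did not pass (limma, adjusted p = 0.0511) and its difference of -2.23 ± 0.34 did (limma, adjusted p = 0.0329). With values under the limit set to it, the difference of Ablim3 was -1.10, a ratio of 2.15. Acr, the sperm protease acrosin, had group means within 1 of the limit: it averaged 4.82 ± 0.12 in tumor-bearing and 5.65 ± 0.093 in tumor-free osteoblasts, against 5.63 ± 0.21 and 5.17 ± 0.12 in tumor-bearing and tumor-free endothelial cells (SD, n = 3 each). It fell by 0.83 in osteoblasts (limma, adjusted p = 0.0134) and its difference was -1.29 ± 0.21.

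A further 8 genes with negative differences of at least 1 on the log2 scale missed the threshold, with adjusted p-values of 0.0527 to 0.079 by limma. Dach1, a transcription regulator, was at low signal in both osteoblast groups, against 6.73, 6.28 and 5.89 in tumor-bearing and 5.07, 3.97 and 4.23 in tumor-free endothelial cells. Its difference was -2.35 ± 0.41 (SE). Without tumor-free osteoblast replicate 1, all 8 passed, and without replicate 2 of that group 6 passed. Dach1 also passed without tumor-free endothelial replicate 1, and Mx2 without tumor-bearing osteoblast replicate 1. Tmem255b was above low signal in all 4 groups, with 7.14, 7.94 and 7.21 in tumor-bearing and 6.13, 6.07 and 6.30 in tumor-free endothelial cells, and its difference was -1.61 ± 0.30. Cd274, the immune checkpoint ligand PD-L1, averaged 5.36 ± 0.17 and 5.69 ± 0.22 in tumor-bearing and tumor-free osteoblasts, against 6.41 ± 0.41 and 5.27 ± 0.089 in tumor-bearing and tumor-free endothelial cells (SD, n = 3 each). The endothelial arrays of Cd274 did not overlap, and the difference was -1.46 ± 0.29 (limma, adjusted p = 0.0671). Oas2 and Mx2, both induced by interferon, had differences of -1.39 ± 0.29 and -2.32 ± 0.49. Mx2 had an endothelial response of 2.37 ± 0.35 and an osteoblast response of 0.057 ± 0.35, with 3 groups at low signal. Tmprss2, Dipk2b and Vmn2r9 had differences of -1.33, -1.35 and -1.03. Vmn2r9 is a vomeronasal receptor, of the families that set the low-signal limit, and was at low signal in 3 groups. It passed the signal filter through tumor-free osteoblasts alone.

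**Figure D3:**
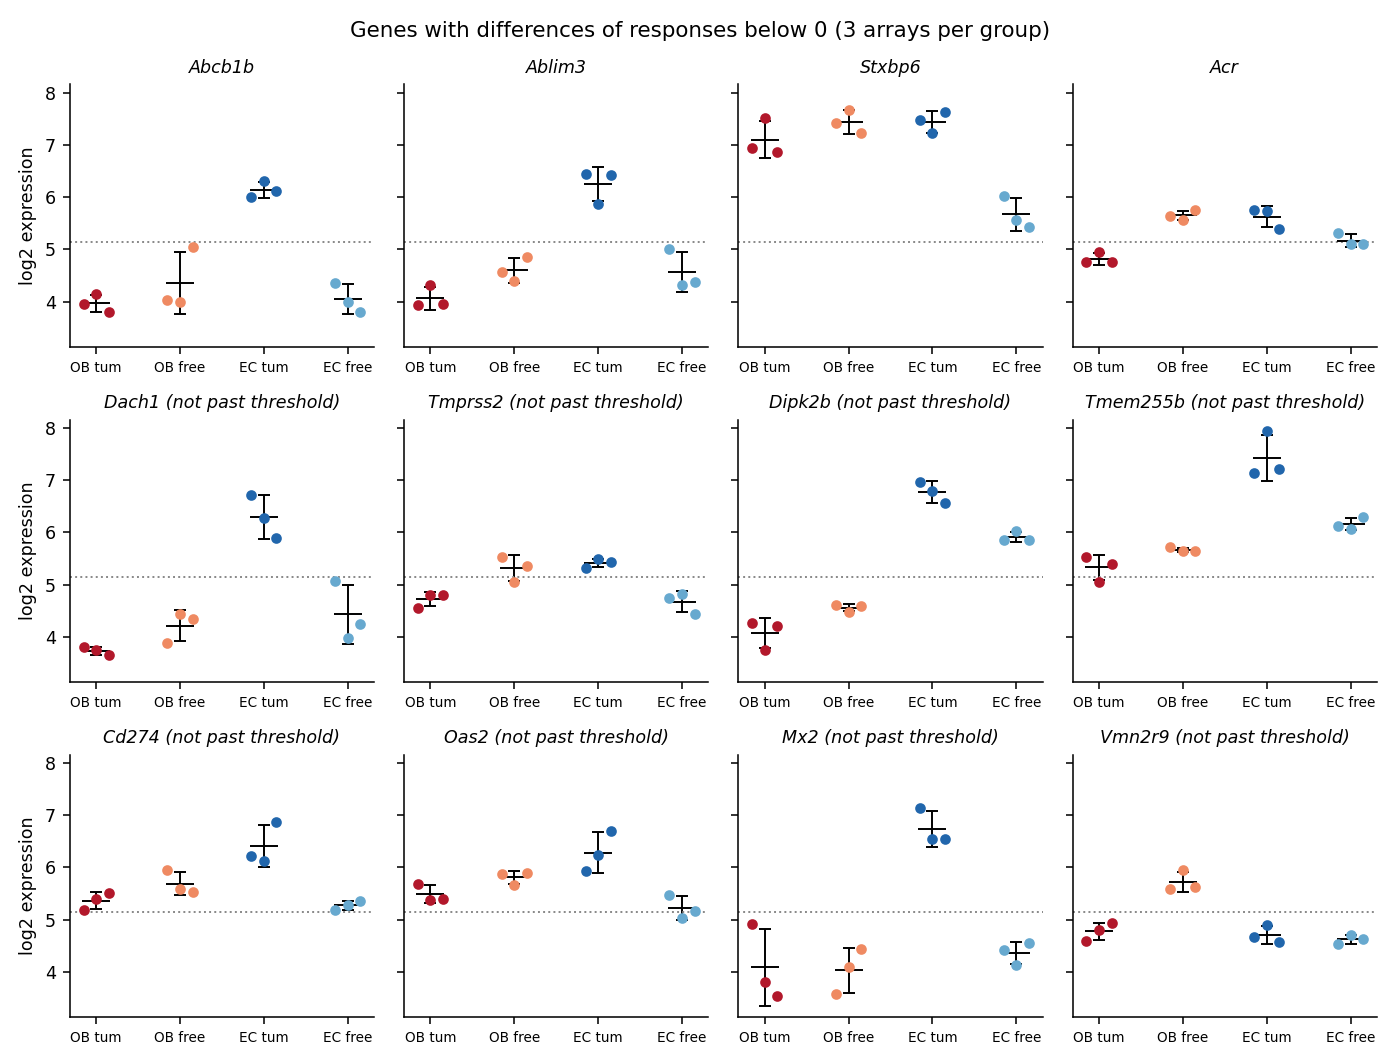
Log2 expression (vertical axis) on each of 12 arrays, by group (horizontal axis, as OB tum, OB free, EC tum and EC free), of the 4 genes past the threshold with a difference below 0 and of the 8 that missed it. Dots are arrays, black bars the mean ± SD of 3 and the dotted line the low-signal limit of 5.15; in the panels of Abcb1b, Ablim3, Dach1 and Mx2 only the tumor-bearing endothelial cells lie above that line.

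The osteoblast and the endothelial response that make up the difference had unequal counts of genes past the threshold. In osteoblasts 570 genes passed (4.59%), 499 of them higher (4.01%) and 71 lower (0.571%) in tumor-bearing mice. In endothelial cells 3 genes passed (0.0241%): Abcb1b and Stxbp6 were higher (0.0161%) and Lpar6, a receptor for lysophosphatidic acid, was lower (0.00805%). Lpar6 measured 8.50, 8.49 and 8.46 in tumor-bearing and 9.66, 9.88 and 10.04 in tumor-free endothelial cells, and its osteoblast response of -0.71 ± 0.18 went the same way, so that the difference of 0.67 ± 0.26 missed the threshold (limma, adjusted p = 0.245). Both counts rest on the spread shared by 4 groups, and the median SD was largest in tumor-free osteoblasts (0.25) and smallest in tumor-free endothelial cells (0.14). With weights per group the counts were 130 and 38, so they do not measure the size of the responses. A fit of the 6 osteoblast arrays alone passed 0 genes, with 1820 at an unadjusted p under 0.05, and a fit of the 6 endothelial arrays alone passed 2. With 1 array left out, the osteoblast count ran from 111 without tumor-bearing osteoblast replicate 2 to 1573 without tumor-free osteoblast replicate 1. The endothelial count was 61 without tumor-free endothelial replicate 1, 2 without tumor-bearing osteoblast replicate 1, 1 without tumor-free osteoblast replicate 3 and 0 when any of the other 9 arrays was left out, with 468 to 1170 genes at an unadjusted p under 0.05 by limma.

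Genes that rose in osteoblasts moved little in endothelial cells. The 499 had a median osteoblast response of 1.27 and a median endothelial response of 0.055, with a middle range of -0.17 to 0.29. Of them 280 (56.1%) were above 0 in endothelial cells, against 46.1% of all genes tested. The 71 genes that fell had medians of -0.70 in osteoblasts and 0.0063 in endothelial cells. Only 22 of the 499 and 1 of the 71 passed in the difference itself, although 436 and 62 had an unadjusted p under 0.05 there. The difference contains the osteoblast response that chose these genes, so those counts are a description. For 51 of the 499 both endothelial groups were at low signal, so the endothelial side of their difference was not measurable. Across 12430 genes the responses of both cell types had a Pearson correlation of 0.126, given as a description, since genes of an array are not independent. The responses shared no array.

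Of 444 genes on 35 lists of functions and cell types, 374 were tested, and 1 of them (0.267%), Anxa2, passed in the difference, a share near the 0.209% of all genes. In osteoblasts 40 (10.7%) rose, against 4.01% of all genes, and 1, the B cell gene Cd79b, fell there, and in endothelial cells 0 passed. Anxa2 binds plasminogen and its activator at the cell surface. It measured 9.36, 9.75 and 9.75 in tumor-bearing osteoblasts and 8.40, 8.22 and 8.29 in tumor-free osteoblasts, against 9.56, 9.56 and 9.73 and 9.76, 9.54 and 9.84 in tumor-bearing and tumor-free endothelial cells. Tumor-bearing osteoblasts reached the level of the endothelial groups, and tumor-free osteoblasts lay below all 9 other arrays. The difference was 1.41 ± 0.22 (SE; limma, adjusted p = 0.0329). The 250 bases before the Anxa2 start (RefSeq, GRCm38.p6, chr9:69453433-69453682, plus strand) hold 1 match of the AP-1 motif TGANTCA, in capitals, 95 bases before the start. The sequence is shown because Anxa2 is the 1 list gene past the threshold. A part of AP-1 in its rise was not tested.
Anxa2: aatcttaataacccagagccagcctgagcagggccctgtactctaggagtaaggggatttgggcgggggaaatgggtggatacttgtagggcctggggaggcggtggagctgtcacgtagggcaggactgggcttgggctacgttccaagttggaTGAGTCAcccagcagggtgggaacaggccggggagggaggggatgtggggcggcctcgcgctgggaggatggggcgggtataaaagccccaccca
Searched on both strands, this motif is in 6.75% of 32841 such promoters, and among 19 of the 22 genes with a promoter sequence only Anxa2 holds it.

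Chondrocyte genes, which make the matrix of cartilage, had the highest list median of the difference, 2.01 against 0.048 over all genes. All 14 were above 0, at 0.75 to 2.93, against 53.3% of all genes, and 0 of 14 passed. In osteoblasts 3 of 14 rose, against 4.01% of all genes: Col2a1 by 1.92, Col9a2 by 1.17, both cartilage collagens, and Cytl1, a secreted cartilage protein, by 4.02. Cytl1 had an endothelial response of 1.59 ± 0.71 that did not pass (limma, adjusted p = 0.7) and a difference of 2.42 ± 1.00 (limma, adjusted p = 0.277). Col2a1 measured 9.38, 10.64 and 10.54 in tumor-bearing osteoblasts and 8.81, 8.42 and 7.57 in tumor-free osteoblasts, against means of 6.41 and 6.43 in tumor-bearing and tumor-free endothelial cells. Its difference of 1.94 ± 0.52 missed the threshold (limma, adjusted p = 0.144) and passed without tumor-free osteoblast replicate 1 (2.21, adjusted p = 0.0394). The mean of the 14 genes was 9.83, 10.52 and 10.31 on tumor-bearing and 9.76, 8.38 and 6.55 on tumor-free osteoblast arrays. Tumor-free replicate 1 thus came close to the lowest tumor-bearing array, and the list median ran from 1.34 without tumor-free osteoblast replicate 3 to 2.72 without replicate 1. In endothelial cells the list mean stayed between 5.18 and 6.17, and 5 and 4 of 14 members were at low signal with and without tumor. Acan, the aggrecan core protein, measured 10.88, 9.35 and 5.26 on the 3 tumor-free osteoblast arrays, a spread wider than its osteoblast response of 2.47 ± 1.09. The part of cartilage RNA in other osteoblast values was not tested.

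Cholesterol synthesis genes had the next highest median, 1.32, with 10 of 11 above 0 and 0 past the threshold. In osteoblasts 2 of 11 rose, against 4.01% of all genes: Hmgcs1, which makes the HMG-CoA that feeds the pathway, by 2.32, and Sc5d, which acts near its end, by 1.75. Hmgcs1 had 8.99, 9.57 and 9.72 in tumor-bearing osteoblasts and 8.51, 6.57 and 6.25 in tumor-free osteoblasts, against 7.53, 7.14 and 7.11 and 7.94, 7.15 and 6.76 in tumor-bearing and tumor-free endothelial cells. Tumor-free osteoblast replicate 1 was again the highest of its group, though below the tumor-bearing arrays. The difference of Hmgcs1 was 2.34 ± 0.73 (SE, 95% interval 0.75 to 3.94; limma, adjusted p = 0.181), and without that array it was 3.04 with an adjusted p of 0.0066. Sc5d had a difference of 2.11 ± 0.60 (limma, adjusted p = 0.159), and 2.53 with an adjusted p of 0.0271 without it. The mean of the 12 measured genes of the list was 7.30, 7.85 and 7.88 in tumor-bearing osteoblasts, 7.45, 6.20 and 6.08 in tumor-free osteoblasts, and 5.97 to 6.20 on the 6 endothelial arrays. Tumor-free osteoblast replicate 1 thus overlapped with the tumor-bearing arrays in the list mean, and the list median ran from 0.83 without replicate 3 of that group to 1.63 without replicate 1. Insig1, which holds back the pathway, was the member below 0, at -0.11 ± 0.39, with responses of 0.63 in osteoblasts and 0.74 in endothelial cells. Hsd17b7, above, is of the same pathway and is not on this list.

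Promoters of the sterol genes are shown because these genes have the CCAAT motif in common. The 250 bases before the start of Hsd17b7 (chr1:169969206-169969455, minus strand), Hmgcs1 (chr13:119690101-119690350, plus strand) and Sc5d (chr9:42264301-42264550, minus strand) are given from RefSeq, GRCm38.p6, 5′ to 3′ along the gene. Capitals mark CCAAT or its reverse ATTGG and, in Hmgcs1 alone, the sterol regulatory motif TCACNCCAC, which no CCAAT match overlaps.
Hsd17b7: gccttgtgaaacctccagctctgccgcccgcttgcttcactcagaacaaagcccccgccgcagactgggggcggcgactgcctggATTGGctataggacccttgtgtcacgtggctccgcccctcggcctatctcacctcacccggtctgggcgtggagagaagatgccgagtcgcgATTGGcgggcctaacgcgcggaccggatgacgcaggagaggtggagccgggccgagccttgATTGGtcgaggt
Hmgcs1: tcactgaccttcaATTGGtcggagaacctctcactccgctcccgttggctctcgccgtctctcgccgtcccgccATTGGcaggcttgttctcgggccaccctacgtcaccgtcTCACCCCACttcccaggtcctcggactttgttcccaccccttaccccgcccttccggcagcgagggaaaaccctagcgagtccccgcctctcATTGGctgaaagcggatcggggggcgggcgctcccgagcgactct
Sc5d: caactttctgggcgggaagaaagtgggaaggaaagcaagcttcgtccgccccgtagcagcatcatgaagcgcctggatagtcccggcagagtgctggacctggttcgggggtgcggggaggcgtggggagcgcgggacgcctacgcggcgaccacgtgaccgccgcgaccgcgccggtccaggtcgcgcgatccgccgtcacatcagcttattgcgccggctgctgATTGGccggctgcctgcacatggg
CCAAT was found on either strand in all 9 cholesterol synthesis genes with a promoter sequence, against 33.9% of 32841 promoters, and in 8 of 19 genes with a larger osteoblast response. TCACNCCAC was in 1 of the 9, Hmgcs1, against 1.05% of all promoters. The upstream 250 bases of Abcb1b (chr5:8797897-8798146, plus strand), shown because it had the larger of the 2 endothelial rises, hold 2 CCAAT matches and none of AP-1.
Abcb1b: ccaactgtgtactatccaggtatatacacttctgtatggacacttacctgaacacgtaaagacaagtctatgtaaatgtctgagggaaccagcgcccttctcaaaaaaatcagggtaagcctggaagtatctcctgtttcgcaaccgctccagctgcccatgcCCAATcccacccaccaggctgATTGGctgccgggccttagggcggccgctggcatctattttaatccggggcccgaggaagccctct
A match of letters in such a window is a description and no sign that a factor binds there.

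Some clotting, prostaglandin and glucose genes had large differences that missed the threshold. F3, tissue factor, which starts coagulation, measured 10.18, 10.69 and 9.89 in tumor-bearing osteoblasts and 8.44, 5.12 and 4.75 in tumor-free osteoblasts, with both endothelial groups at low signal (4.69 with tumor and 4.49 without). The osteoblast arrays of F3 did not overlap, but the tumor-free ones spread widely, with replicate 1 the highest. The difference was 3.95 ± 1.04 (SE, 95% interval 1.65 to 6.25; limma, adjusted p = 0.135) and 5.12 without tumor-free osteoblast replicate 1 (adjusted p = 0.000135). For this and every other gene quoted without that array, the fit was the one with the most genes past the threshold (545). Of the 12 fits with 1 array left out, 6 passed 0 genes. Ptgs2, the enzyme COX-2 of prostaglandin synthesis, had 10.47, 10.56 and 9.30 in tumor-bearing osteoblasts and 7.0, 8.15 and 6.94 in tumor-free osteoblasts, against 5.20, 5.94 and 4.88 and 4.90, 5.90 and 5.56 in tumor-bearing and tumor-free endothelial cells. Its difference was 2.86 ± 0.63 (limma, adjusted p = 0.0828), and it passed without tumor-free osteoblast replicate 1 (adjusted p = 0.0498) or 2 (adjusted p = 0.0312). Hk2, hexokinase 2, catalyzes the first step of glycolysis. It averaged 8.85 ± 0.56 in tumor-bearing and 6.24 ± 0.69 in tumor-free osteoblasts (SD, n = 3 each), with both endothelial groups at low signal. The difference of Hk2 was 2.54 ± 0.55 (limma, adjusted p = 0.0811), and 2.93 without tumor-free osteoblast replicate 1 (adjusted p = 0.0105). Its list of 14 hypoxia and glycolysis genes had a median difference of 0.46 (0.24 without tumor-free osteoblast replicate 3). In osteoblasts 5 of the 14 rose, against 4.01% of all genes: Hk2, Slc2a1, Pfkfb3, Pfkp and Ldha. Vwf, the clotting factor stored by endothelium, went the other way at -1.58 ± 0.41 (limma, adjusted p = 0.134), with 7.84, 7.90 and 7.78 in tumor-bearing and 7.45, 6.07 and 6.43 in tumor-free endothelial cells, where tumor-free replicate 1 lay near the tumor-bearing arrays.

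Targets of TGF-beta, a factor stored in bone matrix, had a median difference of 0.50, 10 of 11 above 0 and 0 past the threshold. In osteoblasts 3 of 11 rose, against 4.01% of all genes: Ccn1 by 1.27, Ccn2 by 1.55 and Thbs1 by 1.11, all secreted matrix proteins. Ccn2 measured 10.05, 10.48 and 10.27 in tumor-bearing osteoblasts and 9.32, 8.58 and 8.24 in tumor-free osteoblasts, against 7.64, 7.41 and 8.19 and 7.81, 7.99 and 7.88 in tumor-bearing and tumor-free endothelial cells. Its difference was 1.70 ± 0.39 (SE; limma, adjusted p = 0.0986), and it passed without tumor-free osteoblast replicate 1 (2.01, adjusted p = 0.00915). Smooth muscle and pericyte genes had a median difference of 0.67. Of them 9 of 10 were above 0, against 53.3% of all genes, and 0 passed the threshold. In osteoblasts 3 of 10 rose, against 4.01% of all genes. Leaving out tumor-free osteoblast replicate 2 gave a median of 0.41, and leaving out tumor-free endothelial replicate 1 gave 0.42. Among them Acta2, smooth muscle actin, had responses of 2.76 ± 0.47 in osteoblasts and 1.06 ± 0.47 in endothelial cells. Tagln, a partner of that actin, had 1.49 ± 0.31 in osteoblasts and 1.27 ± 0.31 in endothelial cells, with a difference of only 0.22 ± 0.44. Of 14 collagen and matrix genes 4 rose in osteoblasts, against 4.01% of all genes: Col6a1, Col12a1, Fn1 and Bgn. The median difference of that list was 0.14. Bgn, the proteoglycan biglycan, had the smallest p of that list, with a difference of 1.12 ± 0.28 (limma, adjusted p = 0.117; adjusted p = 0.0209 without tumor-free osteoblast replicate 1). Of 13 matrix proteases and their inhibitors 3 rose in osteoblasts, against 4.01% of all genes: Timp3, Plau and Adamts1. Timp3, an inhibitor of metalloproteases, had a difference of 1.86 ± 0.55 (limma, adjusted p = 0.17, and 0.00544 without tumor-free osteoblast replicate 1).

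Regulators of osteoclasts did not move together. Tnfrsf11b, osteoprotegerin, the soluble decoy that holds back osteoclasts, had 7.62, 8.19 and 7.14 in tumor-bearing osteoblasts and 6.67, 5.87 and 5.57 in tumor-free osteoblasts, with both endothelial groups at low signal. It rose by 1.61 in osteoblasts (limma, adjusted p = 0.0148), and its difference was 1.52 ± 0.42 (limma, adjusted p = 0.149; adjusted p = 0.0173 without tumor-free osteoblast replicate 1). Tnfsf11, the osteoclast-inducing ligand RANKL that osteoprotegerin binds, averaged 7.91 ± 0.45 and 7.66 ± 0.33 in tumor-bearing and tumor-free osteoblasts, against 7.08 ± 0.25 and 7.0 ± 0.047 in tumor-bearing and tumor-free endothelial cells (SD, n = 3 each). Its difference was 0.17 ± 0.34, with a 95% interval of -0.58 to 0.92. Il11, which encodes interleukin-11, rose by 1.12 in osteoblasts from low signal, with a difference of 1.05 ± 0.28 (limma, adjusted p = 0.141). Both endothelial groups of Il11 were also at low signal, and it passed the signal filter through tumor-bearing osteoblasts alone. With values under the limit set to it, the difference of Il11 was 0.83. Over the 10 tested members the median difference was 0.39, and 0.14, 0.23 and 0.59 without tumor-bearing osteoblast, tumor-free endothelial or tumor-free osteoblast replicate 1. In osteoblasts 3 of the 10 rose, against 4.01% of all genes: Tnfrsf11b, Il11 and Ptgs2.

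Inflammatory cytokine and chemokine genes had similar median responses in both cell types. Their median response was 0.98 in osteoblasts and 0.97 in endothelial cells, and their median difference -0.014, with 8 of 16 above 0 and 0 past the threshold. The median difference rested on single arrays, at -0.40 without tumor-free endothelial replicate 1 and 0.30 without tumor-bearing osteoblast replicate 3. In osteoblasts 2 of 16 rose, Lif and Cxcl1, against 4.01% of all genes, and in endothelial cells 0 of 16 passed. Il6, a cytokine of the acute phase, measured 8.93, 8.03 and 7.74 in tumor-bearing osteoblasts and 7.18, 4.59 and 3.45 in tumor-free osteoblasts, against 9.87, 9.70 and 9.95 and 9.11, 5.93 and 6.64 in tumor-bearing and tumor-free endothelial cells. Tumor-free endothelial replicate 1 lay nearer to the tumor-bearing endothelial arrays than to replicates 2 and 3. The responses of Il6 were 3.16 ± 0.92 in osteoblasts and 2.61 ± 0.92 in endothelial cells. Their difference of 0.54 ± 1.30 had a 95% interval of -2.32 to 3.41, which does not show that they were equal. Tumor-free osteoblasts were at low signal for Il6. With values under the limit set to it, its osteoblast response was 2.41 and its difference -0.21, so the sign depends on readings at low signal. Icam1, an adhesion molecule for leukocytes, had 1.31 ± 0.38 and 1.15 ± 0.38, and Tnfaip3, a brake on NF-kB, 1.04 ± 0.33 and 1.14 ± 0.33 in osteoblasts and endothelial cells. Members with unlike responses were Lif, with 2.17 in osteoblasts and -0.12 in endothelial cells, where it was at low signal, and Cxcl2, a neutrophil chemokine, with 0.26 in osteoblasts and 2.41 in endothelial cells. Their differences were 2.29 ± 0.64 (limma, adjusted p = 0.152) and -2.16 ± 0.98 (limma, adjusted p = 0.314).

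Immediate early genes, transcription factors and feedback genes that cells switch on within minutes of a stimulus, had medians of 1.11 in osteoblasts and 0.61 in endothelial cells and a median difference of 0.37. Without tumor-free endothelial replicate 1 that median was 0.085, without tumor-free osteoblast replicate 3 it was 0.09, and without tumor-free osteoblast replicate 1 it was 0.63. Of 17 members, 16 were above 0 in osteoblasts and 17 in endothelial cells, against 49.9% and 46.1% of all genes. In osteoblasts 3 rose, against 4.01% of all genes, and 0 passed in endothelial cells or in the difference. Nr4a1, a nuclear receptor, had the smallest p of the list, at 1.08 ± 0.36 (SE; limma, adjusted p = 0.204). The list mean was 9.34, 9.45 and 9.34 on tumor-bearing and 8.91, 8.30 and 7.81 on tumor-free osteoblast arrays. On endothelial arrays it was 9.27, 9.27 and 9.22 with tumor and 9.19, 8.39 and 8.25 without. In both cell types tumor-free replicate 1 was the highest of its group. Interferon-stimulated genes had median responses of 0.66 in osteoblasts and 0.73 in endothelial cells, while the median of their differences was -0.35, with 8 of 11 below 0. That median was -0.80 without tumor-bearing osteoblast replicate 1, -0.072 without replicate 3 of that group, and -0.21 without tumor-free osteoblast replicate 2. Of 11 members 0 passed in any comparison, with Mx2, described above, the member farthest from equal responses.

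Neutrophil and macrophage markers had the lowest list medians of the 35, and 7 B and T cell markers had -0.22. For 8 neutrophil markers the median difference was -1.43, from -1.35 in osteoblasts and 0.25 in endothelial cells, and for 11 monocyte and macrophage markers it was -1.07, from -1.05 and 0.097. All 19 were below 0 and 0 of 19 passed, also with 0 at an unadjusted p under 0.05. With tumor-bearing osteoblast replicate 1 or 3 left out, the macrophage median became -1.68 or -0.66, and with tumor-free osteoblast replicate 1, 2 or 3 left out it became -2.77, -0.51 or -0.67. For neutrophil markers, leaving out tumor-bearing osteoblast replicate 3 gave -0.77, and leaving out tumor-free osteoblast replicate 1 or 2 gave -2.28 or -0.78. The macrophage list, with all 12 measured members, averaged 7.08, 6.61 and 4.85 on tumor-bearing and 4.97, 8.19 and 8.08 on tumor-free osteoblast arrays, so the groups overlapped, and it lay between 5.37 and 5.64 on the 6 endothelial arrays. The neutrophil list, with all 11, averaged 6.18, 6.04 and 5.03 on tumor-bearing and 5.41, 7.35 and 6.99 on tumor-free osteoblast arrays. Both cell types were sorted without CD45, whose gene Ptprc measured 7.03, 6.87 and 4.70 in tumor-bearing and 4.92, 8.46 and 6.41 in tumor-free osteoblasts, and was at low signal in both endothelial groups. Tumor-free osteoblast replicate 1 and tumor-bearing replicate 3 were the low arrays for these markers. MHC class I and II genes had a median of -0.62, with 9 of 10 below 0 and 0 past the threshold (-1.15 without tumor-free osteoblast replicate 1 and -0.32 without tumor-bearing osteoblast replicate 3). Endothelial genes had a median of -0.30, from -0.40 in osteoblasts and -0.16 in endothelial cells (-0.17 without tumor-bearing osteoblast replicate 3 and -0.083 without tumor-free osteoblast replicate 2). In osteoblasts 4 of 18 endothelial genes were at low signal with tumor and 2 without. The part of leukocyte RNA in the 26 genes past the threshold was not tested.

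**Figure D4:**
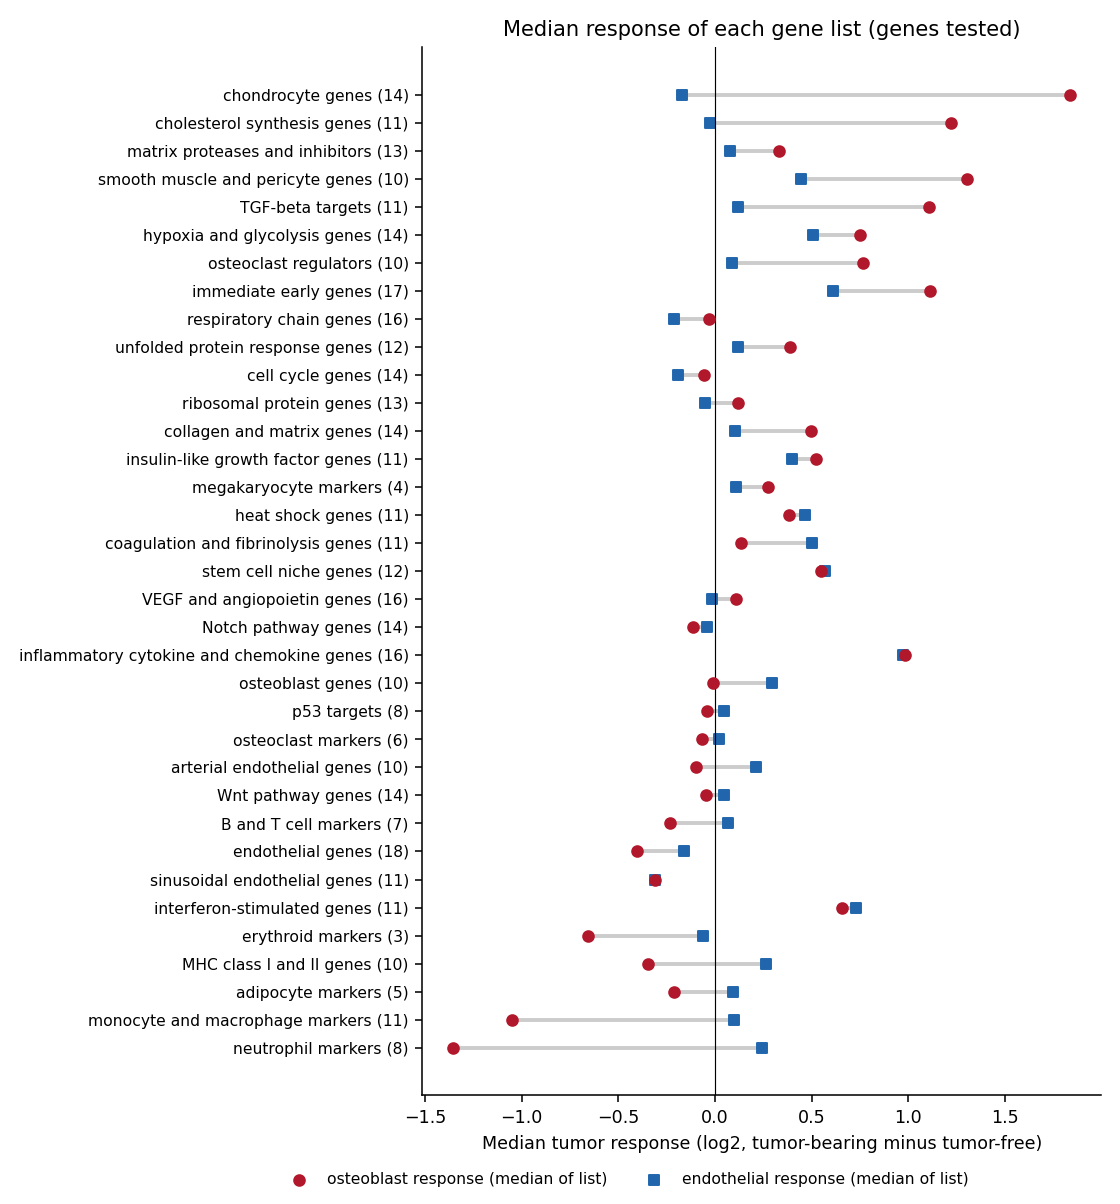
Median tumor response (horizontal axis, log2 tumor-bearing minus tumor-free) of each of 35 gene lists in osteoblasts (red circles) and endothelial cells (blue squares), ordered by the median difference of responses, with the number of genes tested in brackets. Chondrocyte genes have the largest gap, 1.84 against -0.17, and inflammatory genes have 0.98 against 0.97, a small gap that moves with single arrays.

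**Figure D5:**
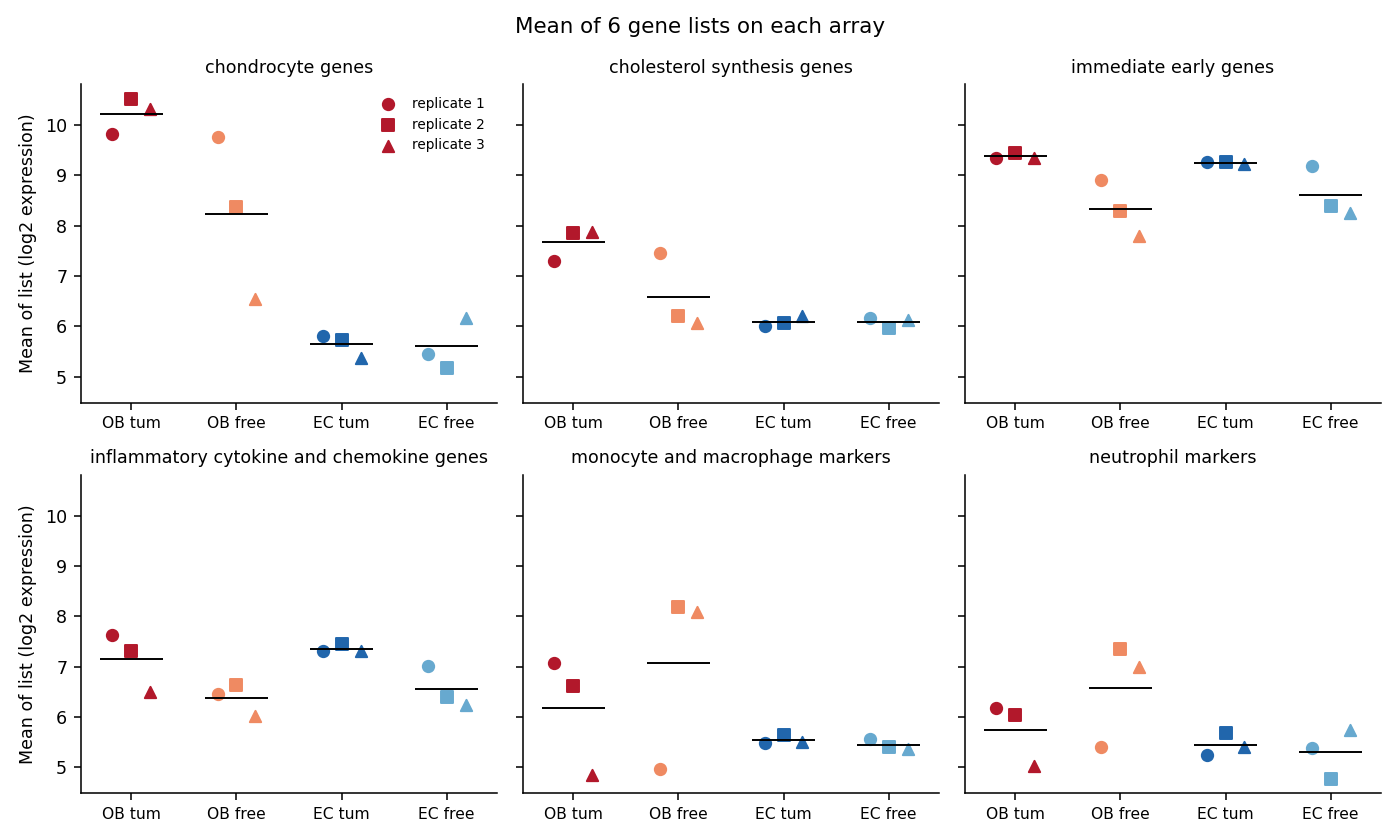
Mean log2 expression (vertical axis) of 6 gene lists on each array, by group (horizontal axis, OB tum, OB free, EC tum and EC free), with replicates 1, 2 and 3 as circles, squares and triangles and black bars as group means. Tumor-free osteoblast arrays range from 6.55 to 9.76 for chondrocyte genes and from 4.97 to 8.19 for macrophage markers.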

How the data were processed

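Per the labels' protocols, RNA was isolated by Pico Pure, amplified by SPIA and biotin-labelled. The authors deposited log2 values for 34760 probe sets (1.55 to 12.9), made with affy per the submitters' processing notes. The sources used here give neither its version and normalization nor whether arrays pool or share mice. Per the labels' design text n was 6 to 10, and how that relates to 3 arrays a group is not stated. p-values therefore cover the spread between these arrays, which may be technical. Of 66 array pairs 0 were identical.

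Probe sets with 1 gene symbol (21640; 1321 had several and 11799 were not listed) gave 19937 genes. Genes above the array's median on at least 3 of 12 arrays were tested. Kera, Abcb1b, Ablim3, Dach1, Mx2, Vmn2r9 and Il11 passed this filter through their 1 high group alone. limma 3.58.1 (R 4.3.3) fitted 1 mean per group, with default eBayes, two-sided, adjusted by Benjamini-Hochberg over 12430 genes at 0.05. The contrast was the osteoblast minus the endothelial tumor response, without a replicate block. Steps were tested on simulated data. Errors are SE unless given as SD.

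Members, lists and tests were chosen with earlier results of these data known. The text names up to 12 genes each way with the largest difference among those past the threshold, filled to 12 by smallest p among differences of at least 1 (clone and model names passed over), then 2 genes of smallest p per list and 13 fixed genes. The other 9 called genes, Lpar6 and other list members were named after their values were seen. Lists have counts and medians only. Promoters are RefSeq's, without chromosome 18, and some genes of other chromosomes, such as Lbp, had no promoter sequence either.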

Additional observations from a re-analysis of the deposited data

Results flagged for a closer look

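Genes whose tumor response differed between the cell types by the test of that difference itself were singled out. With a larger osteoblast response (log2 difference) these included Kera (2.73), Abhd2 (2.59), Mtmr12 (2.44), Slc41a1 (2.37), Lbp (2.28), Sobp (2.24), Adgra3 (2.05), Acvr1b (1.91), Hsd17b7 (1.91), Ube3c (1.86), Mfn1 (1.85), Zbtb43 (1.76) and Anxa2 (1.41). With a difference below 0 they were Abcb1b (-2.48), Ablim3 (-2.23), Stxbp6 (-2.11) and Acr (-1.29). The sizes for Kera, Zbtb43, Abcb1b, Ablim3 and Acr depend on readings at low signal. With values under the limit set to it, they came to 1.75, 0.98, -0.99, -1.10 and -0.93. Acvr1b and Nbr1 are also to read with their levels. Acvr1b had osteoblast and endothelial arrays separated in opposite directions (1.00 and -0.91). Nbr1 had the smallest osteoblast rise of the 22 (0.61) beside an endothelial response of -0.70.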

How the results depend on the processing

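For the difference of responses, 26 genes became 324 with array weights, 96 with median centring, 42 with the mean over probe sets, 14 with quantile normalization and 11 with a filter at the 70th percentile, and 378 when both tumor-free replicates 1 were left out. The replicate number as a block gave 0, with 1861 genes at an unadjusted p under 0.05, and as a block within tumor status 0, with 1777. Deviations of same-numbered arrays had correlations near 0 or below (r of -0.046 to 0.095 between cell types, -0.26 to 0.036 between tumor states), and 3 of 6 osteoblast arrays correlated best with their own number. The numbers were not taken as a pairing, although shared mice are not known. In both cell types tumor-free replicate 1 was the highest of its group in the means of immediate early, heat shock, and hypoxia and glycolysis genes. Leaving out 1 array gave 0 to 545. The osteoblast count of 570 became 955 without a filter, 349 with the replicate block, 1421 without both tumor-free replicates 1, 130 with weights per group, 0 from the 6 osteoblast arrays alone and 374 at 2-fold or more, and 111 to 1573 with 1 array left out. The endothelial count of 3 became 449 with array weights, 159 without both tumor-free replicates 1, 38 with weights per group, 7 with the mean over probe sets, and 0 with the 70th percentile filter, an intensity trend, median centring, no filter, quantile normalization or the replicate block (568 to 1186 genes at an unadjusted p under 0.05), and 0 to 61 with 1 array left out. The cause of these shifts was not tested.

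Of 2274 repeats over 100 named genes, 1977 kept side and sign, 175 lost and 87 gained the threshold, and 35 reversed, in 10 genes that had not passed (differences of -0.47 to 0.54). Reversed values were, with array weights Col1a1 -0.44, Tnfsf11 -0.13, Cxcl12 -0.28, Vcam1 -0.32, with median centring Itgav 0.038, with quantile normalization Col1a1 -0.12, Tnfsf11 -0.064, Cxcl12 -0.067, Vcam1 -0.053, with both tumor-free replicates 1 left out Col1a1 -0.93, Cxcl12 -0.76, Vcam1 -0.63. With 1 array left out, the range over 12 fits was -0.56 to 0.014 for Pecam1, -1.01 to 0.23 for Cdh5, -0.59 to 0.25 for Kdr, -0.30 to 0.14 for Itgav, -0.95 to 0.51 for Col1a1, -1.19 to 0.58 for Ptprc, -0.067 to 0.37 for Tnfsf11, -0.40 to 1.60 for Il6, -0.46 to 0.46 for Cxcl12, -0.63 to 0.40 for Vcam1. Median centring moved the median difference of all genes to 0.15. Few replicates and low signal limit the precision.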

Other observations

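Several lists gave differences close to the median of all genes. Of 14 Notch pathway genes 0 passed in the difference, and the list median was -0.0074. Within it the ligands Jag1 and Dll4 had unlike signs, with differences of 1.38 ± 0.46 (limma, adjusted p = 0.204) and -0.92 ± 0.38 (limma, adjusted p = 0.279); Jag1 rose by 1.35 in osteoblasts, and Dll4 had 0.64 in endothelial cells, which did not pass (limma, adjusted p = 0.685). Of 14 Wnt pathway genes 0 passed, with a median of -0.21, and Lef1, a transcription factor of the pathway, had the smallest p, with 0.47 in osteoblasts, -0.53 in endothelial cells and a difference of 1.00 ± 0.25 (limma, adjusted p = 0.122). Sost, which encodes the Wnt inhibitor sclerostin, had a difference of -0.40 ± 0.25.

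Ribosomal protein genes had a median difference of 0.17, with 12 of 13 above 0 and 0 past the threshold, and respiratory chain genes 0.20, with 9 of 16 above 0. Cell cycle genes had 0.18 and p53 targets -0.068. Osteoblast genes had a median of -0.042: Smpd3, a sphingomyelinase of mineralizing bone, rose in osteoblasts by 1.01, with 0.32 in endothelial cells, and Col1a1, the main bone collagen, had 10.15 ± 0.28 in tumor-bearing and 10.34 ± 1.68 in tumor-free osteoblasts (SD, n = 3 each), the tumor-free arrays being 8.40, 11.29 and 11.34. Cxcl12 and Vcam1, which hold blood stem cells in the marrow, had differences of 0.093 ± 0.63 and 0.035 ± 0.68.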
